A study of Mus musculus with 98 samples.

Results

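Short 3' overhangs far inside the Recombination Substrate were the broken DNA ends on which the strand that ends 3' reached 1 to 9 nt past the strand that ends 5', and on which the shorter strand had lost 20 nt or more from the site of the cut. They were chosen by these 2 values of each deposited end structure, so their position and overhang length describe them and are not findings. The rule found 519 distinct structures among the 2454 distinct structures of the 6 substrate tables, where 2188 structures of any kind had lost 20 nt or more on at least 1 strand. The whole series held 13564 structure entries in 17 tables. In the text a member is a structure of this class, and a far-inside end is any end with 20 nt or more lost on at least 1 strand.

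The ends came from Abelson-transformed mouse pre-B cells, a B-lymphocyte precursor line in which the RAG recombinase can be switched on. The lines with a second deletion were Lig4-/- H2AX-/- lines 5 and 8 and Lig4-/- 53BP1-/- lines B and C, set against Lig4-/- lines A and B, so every line lacked ligase IV. A time of 48 h stood in the titles of H2AX-deficient line 8, 53BP1-deficient line B and both Lig4-/- lines. H2AX-deficient line 5 and 53BP1-deficient line C had none. Sequencing run 4 held H2AX-deficient line 5, 53BP1-deficient line B and both Lig4-/- lines, run 2 held H2AX-deficient line 8 and run 6 held 53BP1-deficient line C. The tag shNT stood, unexplained, in the titles of 53BP1-deficient line C and Lig4-/- line B. The labels do not say whether the lines of a genotype came from different mice, nor which type of RAG end was amplified.

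V(D)J recombination joins antigen receptor gene segments. RAG cuts at their borders, and ligase IV seals the ends by non-homologous end joining, so cells without ligase IV keep the ends open. Open ends can be trimmed by nucleases, a process called resection, and an end with strands of nearly equal length far from the cut has lost DNA from both strands. H2AX is a histone variant that is phosphorylated in chromatin around breaks, and 53BP1 is a chromatin-bound protein recruited there, and both are known to protect unjoined ends from resection. HCoDES, for hairpin capture of DNA end structures, ligates the strands of an end to each other and reads both stops from the same molecule after bisulfite treatment and PCR.

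Each table pooled 3 libraries of 1 line, so the line was the replicate, with 2 lines a genotype. Where 2 values stand for a genotype, they are those of lines 5 and 8, B and C, or A and B. The tables held 76325 reads in H2AX-deficient line 5, 72923 in H2AX-deficient line 8, 337917 in 53BP1-deficient line B, 127289 in 53BP1-deficient line C, 330683 in Lig4-/- line A and 128122 in Lig4-/- line B. They listed structures with 2 reads or more, except that of 53BP1-deficient line C, which also listed those with 1 read. A structure missing from a table is called not listed, since reads below that minimum cannot be seen. In 53BP1-deficient line C, 1 of the 3 libraries also carried H2AX line 5 in its title and, per its description, a second PCR to be separated by primer. The pooled table does not separate that library, so all values of 53BP1-deficient line C rest on it. Positions were read as nt lost from position 2, the lowest in the tables, and the sign of an overhang from the KpnI control, in which a structure with an overhang of 4 nt held 99.2% of 307425 reads.

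All 6 tables listed short 3' overhangs far inside. There were 142 members in H2AX-deficient line 5, 172 in H2AX-deficient line 8, 185 in 53BP1-deficient line B, 110 in 53BP1-deficient line C, 188 in Lig4-/- line A and 135 in Lig4-/- line B. Many were rare. Members with under 10 reads numbered 53 and 32 in H2AX-deficient lines 5 and 8, 122 and 77 in 53BP1-deficient lines B and C, and 103 and 55 in the Lig4-/- lines, and 33 of those in 53BP1-deficient line C had 1 read. The farthest member had lost 182 nt on its 5'-ending strand, while far-inside ends of all kinds reached 207 nt on that strand.

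At the edges of the class the balance of inside and outside varied by line. Overhangs of 9 nt, the longest inside, held 0.0377% of all reads in 53BP1-deficient line C and 0.0734% in Lig4-/- line B, where overhangs of 10 nt, the first outside, held 1.82 and 1.07%. In the other 4 lines overhangs of 9 nt held 0.672 to 1.28% and those of 10 nt 0.572 to 1.37%. Structures with exactly 20 nt lost held at most 0.248% of reads in a mutant line and 0.126 and 0.438% in the Lig4-/- lines, and those with 19 nt lost at most 0.0535% and then 0.517 and 0.252%. The most abundant structure with a 10-nt overhang had lost 120 nt and held 1.72% of reads in 53BP1-deficient line C.

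Members made up more of all reads in cells that lacked H2AX beside ligase IV than in cells that lacked ligase IV only. They held 30.9% of reads in line 5 (95% interval 30.6 to 31.2) and 29.6% in line 8 (29.2 to 29.9), against 12.8% in Lig4-/- line A (12.7 to 12.9) and 14.6% in Lig4-/- line B (14.4 to 14.8). The mean was 30.2% ± 0.951 against 13.7% ± 1.27 (SD, n = 2 lines each), a difference of 16.5 points. The smallest gap between lines of the genotypes was 15.0 points, while sister lines, those of the same genotype, were up to 1.80 points apart. Every pair of lines also differed in Fisher's exact test on reads at the 0.05 threshold, which compares pools of reads and not conditions. An exact permutation test over lines, two-sided, gave p = 0.333, the smallest that 4 lines allow. Within sequencing run 4, where only line 5 stood for H2AX deficiency, the difference was 17.2 points. With each structure counted once in place of its reads it was 4.40 points and no longer passed in every pair. It was called but smaller with 10 nt or more lost as the limit (6.78 points) and with overhangs of 1 to 4 nt (8.76 points).

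The 53BP1-deficient lines fell on both sides of the Lig4-/- lines. Members held 11.9% of reads in 53BP1-deficient line B (11.8 to 12.0) and 31.0% in 53BP1-deficient line C (30.8 to 31.3), and the mean of 21.5% ± 13.5 stood 7.78 points above the Lig4-/- mean (SD, n = 2 lines). The gap between these lines, 19.1 points, was larger than that difference, and no call was made. The difference was 17.3 points without 53BP1-deficient line B and -1.78 points without 53BP1-deficient line C, each resting on the 53BP1-deficient line that was left. The H2AX-deficient mean was 8.76 points above the 53BP1-deficient mean, also without a call. It was -0.797 points without 53BP1-deficient line B and 18.3 points without 53BP1-deficient line C. These 3 comparisons share lines.

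**Figure D1:**
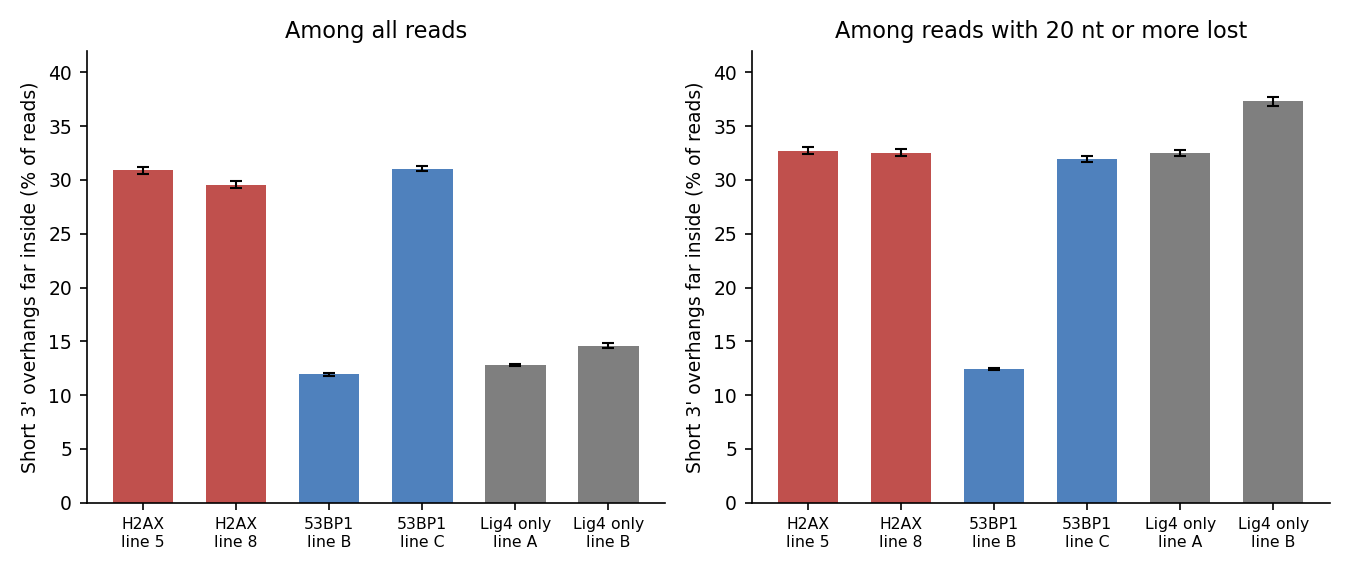
Short 3' overhangs far inside the substrate as a share (%) of all reads (left) and of reads with 20 nt or more lost on at least 1 strand (right), by cell line. Bars are the pooled table of each line and error bars the 95% interval by the Clopper-Pearson method, for counting error alone; on the left both H2AX-deficient lines and 53BP1-deficient line C lie between 29.6 and 31.0%, and on the right all lines but 53BP1-deficient line B lie between 31.9 and 37.3%.

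The higher share in H2AX-deficient cells stood beside a larger share of far-inside ends of all kinds together. Far-inside ends held 94.5 and 90.9% of reads in H2AX-deficient lines 5 and 8, 95.9 and 97.2% in 53BP1-deficient lines B and C, and 39.4 and 39.2% in the Lig4-/- lines. Among far-inside reads alone, members held 32.7 and 32.5% in H2AX-deficient lines, against 32.5 and 37.3% in Lig4-/- lines. The difference of -2.25 points was not called, with line gaps from -4.74 to 0.245 points and a largest Fisher's exact p of 0.772. Members held 12.4 and 31.9% of far-inside reads in 53BP1-deficient lines B and C. The difference was -12.7 points for 53BP1-deficient against Lig4-/- lines and 10.5 points for H2AX-deficient against 53BP1-deficient lines, and all pairs passed. The nearest lines were 0.555 and 0.621 points apart, against 19.5 points between the 53BP1-deficient lines, so neither difference exceeded the spread between lines. Without 53BP1-deficient line B they were -2.96 and 0.710 points, and without 53BP1-deficient line C -22.4 and 20.2 points.

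The members themselves lay farther from the cut in both mutants. Weighted by reads, the 5'-ending strand of a member had lost a median of 124 nt in H2AX-deficient line 5, 153 nt in H2AX-deficient line 8, 141 nt in 53BP1-deficient line B and 127 nt in 53BP1-deficient line C, against 40 nt in Lig4-/- line A and 45 nt in Lig4-/- line B. With each structure counted once the medians were 113 and 132 nt, 123 and 132 nt, and 48 and 45 nt in the same order of lines. No mutant line overlapped a Lig4-/- line in either measure.

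Members with 100 nt or more lost held 21.9 and 24.8% of all reads in H2AX-deficient lines 5 and 8, against 2.68 and 3.94% in the Lig4-/- lines. The mean difference was 20.05 points, the smallest gap between lines of the genotypes was 17.9 points, and lines of a genotype differed by up to 2.96 points. Counting structures and not reads gave a difference of 9.06 points, with line gaps from 6.00 to 12.1 points. In 53BP1-deficient lines B and C the share was 10.7 and 29.6%. This was 16.8 points above the Lig4-/- mean, with a smallest gap of 6.77 points and 18.9 points between the 53BP1-deficient lines. Both differences passed in every pair of lines (Fisher's exact test on reads), and the exact permutation p over lines was 0.333 in each, the smallest that 4 lines allow. Position was 1 of the 2 values of the rule. The shares by range of loss, here and below, were therefore planned as description, and their tests on reads compare pools of reads and not conditions. The 53BP1 difference was 7.40 points within run 4, where 53BP1-deficient line C is absent, 26.3 points without 53BP1-deficient line B, and 3.15 points when the 10 most abundant members of each table were left out.

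Members with 20 to 59 nt lost went the other way. They held 5.85 and 2.37% of reads in H2AX-deficient lines 5 and 8, against 8.79 and 9.84% in the Lig4-/- lines. The difference of -5.21 points passed in every pair, but the nearest lines were 2.94 points apart and the H2AX-deficient lines 3.48 points. Without line 8 it was -3.465 points. In 53BP1-deficient lines B and C these members held 0.199 and 0.837% of reads. The difference from the Lig4-/- mean was -8.79 points, and the smallest gap of 7.95 points was past the 1.05 points between sister lines. Without 53BP1-deficient line C it was -9.11 points. Within the class the contrast was wider. Members with 20 to 59 nt lost were 18.9 and 8.00% of member reads in H2AX-deficient lines, 1.67 and 2.70% in 53BP1-deficient lines, and 68.6 and 67.4% in Lig4-/- lines. The smallest gap from the Lig4-/- lines was 48.4 points for H2AX-deficient lines and 64.7 points for 53BP1-deficient lines, set by line C. The mean difference from Lig4-/- lines was -65.8 points for both 53BP1-deficient lines and -66.3 points without line C.

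Members with 60 to 99 nt lost were a small part of all reads, though not the smallest in every line. They held 3.19 and 2.36% of reads in H2AX-deficient lines, 1.02 and 0.621% in 53BP1-deficient lines, and 1.33 and 0.826% in Lig4-/- lines. The H2AX-deficient lines lay above both other genotypes there, by a smallest gap of 1.03 points over Lig4-/- and 1.35 points over 53BP1-deficient lines, with 0.826 points between sister lines. The gap over 53BP1-deficient lines was set by line B. The 53BP1-deficient and Lig4-/- lines overlapped. In 53BP1-deficient line B these members exceeded those with 20 to 59 nt lost (0.199%), and in Lig4-/- line A those with 100 nt to under 140 nt lost (1.08%). Among member reads, those with 60 to 99 nt lost made up 10.3 and 8.00% in H2AX-deficient lines and 8.53 and 2.00% in 53BP1-deficient lines. They made up 10.4 and 5.65% in Lig4-/- lines. On this measure the H2AX-deficient lines overlapped both other genotypes.

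**Figure D2:**
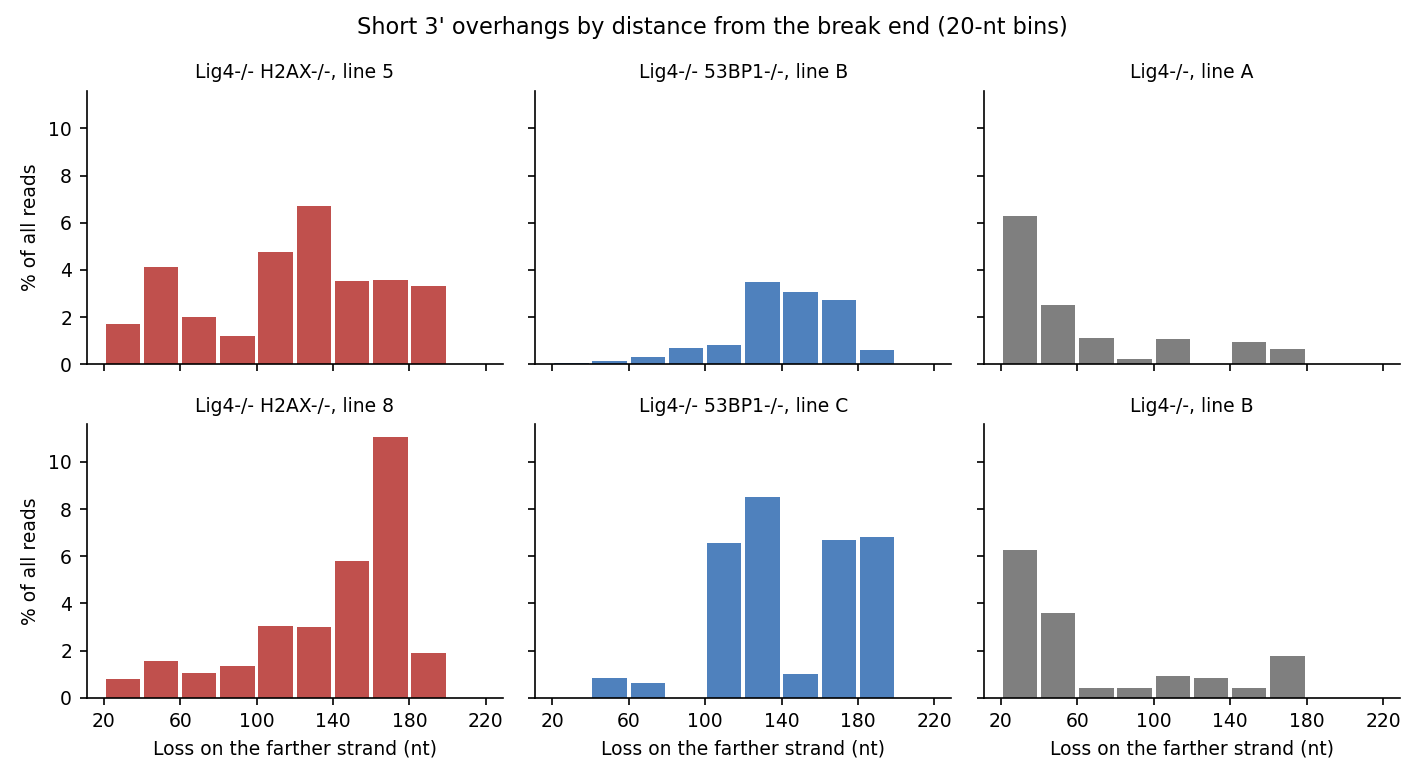
Share (%) of all reads in short 3' overhangs by nt lost on the farther (5'-ending) strand, in bins of 20 nt, 1 panel per line. The highest bin of each mutant line starts at 120 or 160 nt, while that of both Lig4-/- lines runs from 20 to 39 nt (6.28 and 6.25%).

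The contrast in distance was wider among members than among the other far-inside ends of the same tables. Among those other ends, 74.6 and 84.4% of reads had lost 100 nt or more in H2AX-deficient lines 5 and 8, 89.9 and 91.7% in 53BP1-deficient lines B and C, and 58.1 and 52.1% in the Lig4-/- lines. The same share among members was 70.8 and 84.0%, 89.8 and 95.3%, and 20.9 and 27.0% in these lines. Members minus other far-inside ends, this share differed by -3.82 and -0.398 points in H2AX-deficient lines, by -0.111 and 3.65 points in 53BP1-deficient lines, and by -37.2 and -25.1 points in Lig4-/- lines. This offset differed between H2AX-deficient and Lig4-/- lines by 29.0 points (line gaps 21.2 to 36.8) and between 53BP1-deficient and Lig4-/- lines by 32.9 points (24.9 to 40.8, and 31.0 without 53BP1-deficient line C), each with p = 0.333 in an exact permutation test over lines, the smallest it can give. Short 5' overhangs of 1 to 9 nt, the mirror class, had medians of 138 and 150 nt in H2AX-deficient lines, 136 and 130 nt in 53BP1-deficient lines, and 102 and 98 nt in Lig4-/- lines. Over all 6 lines, the share with 100 nt or more lost was -10.5 points in members minus other far-inside ends (exact paired permutation p = 0.156, adjusted p = 0.3125). In members minus short 5' overhangs it was -6.02 points, positive in 3 of 6 lines (exact paired permutation p = 0.469, adjusted p = 0.670). The offset and these tests were added after the values had been seen, and position was a value of the rule.

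At Jk1, the genomic RAG break measured in 5 of the lines, 449 distinct structures met the same rule. They held 18.9 and 18.1% of reads in H2AX-deficient lines 5 and 8, 7.71% in 53BP1-deficient line B, and 9.38 and 20.1% in the Lig4-/- lines. Their median loss was 116 and 133 nt, 123 nt, and 55 and 89 nt in these lines. The share among all reads was higher at the substrate than at Jk1 in 4 of 5 lines, by a mean of 5.13 points ± 7.15 (SD), which an exact paired permutation test over lines did not separate from 0 (two-sided p = 0.25, adjusted p = 0.417 over 10 comparisons, smallest possible p = 0.0625). Among far-inside reads the mean difference was 1.41 points ± 9.56 (SD), positive in 3 of 5 lines (exact paired permutation p = 0.6875, adjusted p = 0.859).

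Against the other classes of far-inside end at the substrate, members outnumbered blunt ends in 6 of 6 lines. Blunt ends held 7.86 and 11.3% of all reads in H2AX-deficient lines, 7.43 and 6.06% in 53BP1-deficient lines, and 6.41 and 4.98% in Lig4-/- lines, and members exceeded them by a mean of 14.5 points ± 8.79 (SD, n = 6 lines). The exact paired permutation p was 0.0312, the smallest possible, and 0.156 after adjustment. The class spans 9 lengths and blunt ends 1, so their sizes are not like for like. Short 5' overhangs, which also span 9 lengths, held 27.5 and 31.7%, 36.6 and 13.3%, and 9.95 and 11.7% of reads in these lines. Members exceeded them in 4 of 6 lines, by differences from -24.7 to 17.8 points (exact paired permutation p = 1, adjusted p = 1). The extremes were both 53BP1-deficient: line B had more short 5' overhangs and line C more short 3' overhangs. Overhangs of 10 nt or more on the 3' side held 24.6 and 10.8%, 18.1 and 20.96%, and 9.46 and 5.15%. Members were above them in 5 of 6 lines, by a mean of 6.96 points (exact paired permutation p = 0.0938, adjusted p = 0.234).

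Overhangs of 1 to 4 nt carried most member reads in every line, but less so in the mutants. They held 64.0 and 63.9% of member reads in H2AX-deficient lines 5 and 8 and 62.5 and 55.2% in 53BP1-deficient lines B and C, against 73.2 and 80.6% in the Lig4-/- lines. The difference from Lig4-/- was -13.0 points for H2AX-deficient and -18.0 points for 53BP1-deficient lines, or -14.4 points without 53BP1-deficient line C. The nearest lines, H2AX-deficient line 5 and 53BP1-deficient line B against Lig4-/- line A, were 9.18 and 10.7 points apart. Sister lines were up to 7.44 points apart. All pairs passed Fisher's exact test on reads, which compares pools of reads and not conditions. Overhang length was the other value of the rule, so the shares by length, here and below, were planned as description.

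Single lengths were uneven. A 1-nt overhang was the most common length in H2AX-deficient lines 5 and 8 (23.3 and 21.1% of member reads), 53BP1-deficient line B (34.6%) and Lig4-/- line A (23.9%). In 53BP1-deficient line C the 5-nt overhang led with 24.0% and the 1-nt overhang held 7.11%, and in Lig4-/- line B the 2-nt overhang led with 26.8%. The 5-nt overhang held 10.4 and 14.7% in H2AX-deficient lines and 15.4 and 24.0% in 53BP1-deficient lines, against 6.29 and 6.43% in Lig4-/- lines. Its smallest gap between 53BP1-deficient and Lig4-/- lines, 8.97 points and set by 53BP1-deficient line B, was just past the 8.55 points between sister lines, while for H2AX-deficient lines that gap was 3.98 points, less than the 4.33 points between line 5 and line 8. The 3-nt overhang held 5.74 and 3.96% in 53BP1-deficient lines and 21.3 and 13.4% in Lig4-/- lines, with a smallest gap of 7.64 points, again from 53BP1-deficient line B, within the 7.88 points between the Lig4-/- lines. H2AX-deficient lines, at 15.1 and 14.5%, exceeded the 53BP1-deficient lines in it by at least 8.79 points, set by 53BP1-deficient line B, with 1.78 points between sister lines.

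**Figure D3:**
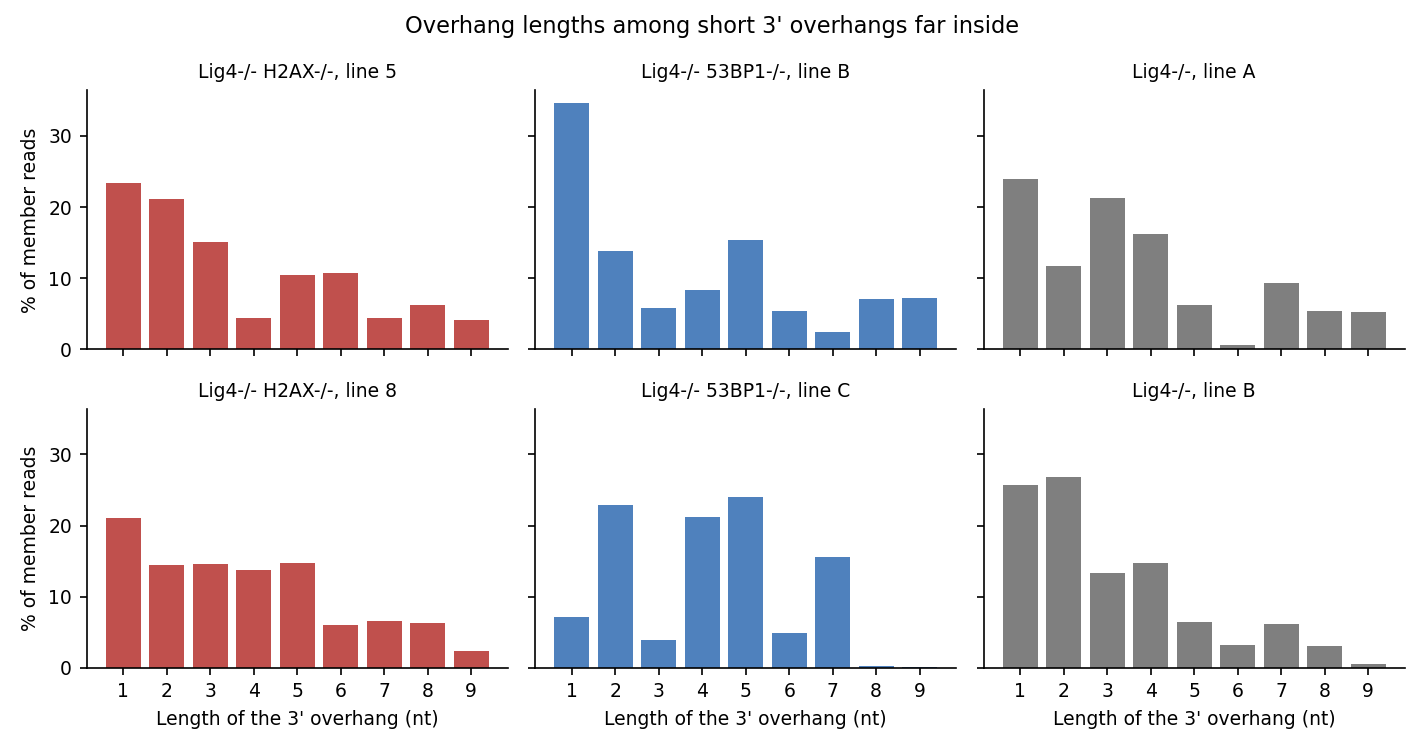
Share (%) of member reads by overhang length, 1 to 9 nt, 1 panel per line. The 1-nt overhang is the highest bar in 4 lines, the 5-nt overhang in 53BP1-deficient line C (24.0%) and the 2-nt overhang in Lig4-/- line B (26.8%).

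Few structures carried many of the reads, most of all in 53BP1-deficient line C. To reach 50% of member reads took 15 structures in H2AX-deficient line 5, 29 in H2AX-deficient line 8, 13 in 53BP1-deficient line B, 4 in 53BP1-deficient line C, 18 in Lig4-/- line A and 21 in Lig4-/- line B. The 10 most abundant members held 40.3 and 26.7% of member reads in H2AX-deficient lines, 43.1 and 86.3% in 53BP1-deficient lines, and 33.1 and 30.0% in Lig4-/- lines. The single leading member held 10.5 and 3.70%, 10.3 and 21.9%, and 4.77 and 4.43%. How many starting molecules each structure stood for was not measured, as the tables count PCR reads.

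**Figure D4:**
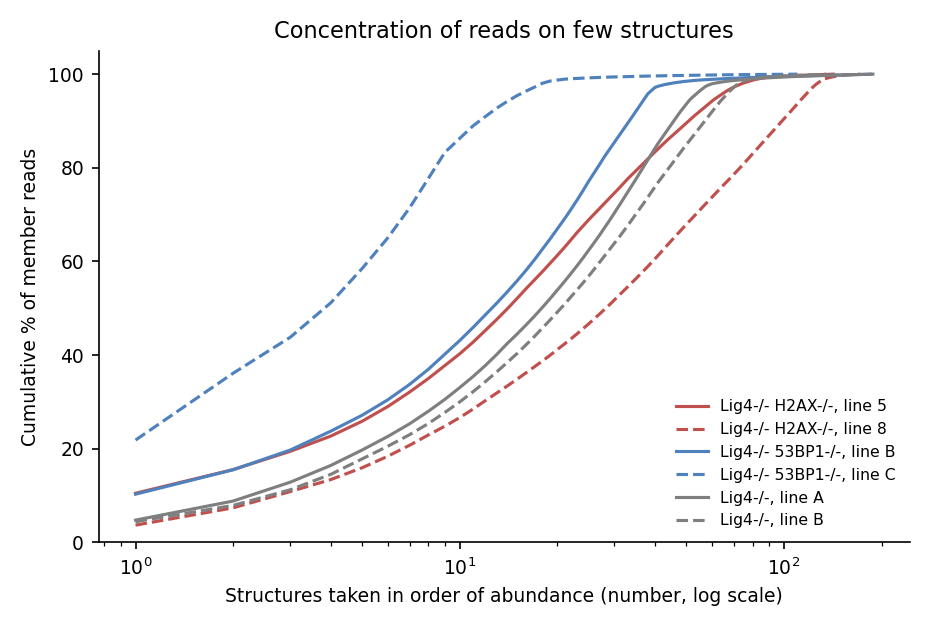
Cumulative share (%) of member reads against the number of structures taken in order of abundance (log axis), 1 curve per line. The curve of 53BP1-deficient line C climbs first, reaching 86.3% with 10 structures, and that of H2AX-deficient line 8 last, at 26.7%.

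The leading structures mostly differed from line to line. In H2AX-deficient line 5 the first was a 3-nt overhang with 180 nt lost, at 3.25% of all reads, which was not listed in H2AX-deficient line 8 and held 0.00178% in 53BP1-deficient line B and 0.00212% in Lig4-/- line A. In H2AX-deficient line 8 the first were a 5-nt overhang at 173 nt and a 2-nt overhang at 171 nt, each at 1.09%. In 53BP1-deficient line B a 1-nt overhang at 173 nt led with 1.23%. In 53BP1-deficient line C a 2-nt overhang at 180 nt held 6.79%, and 4-nt overhangs at 107 and 114 nt held 2.28% each and were listed in no other table.

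A 5-nt overhang with 168 nt lost was abundant in 3 mutant lines. It held 1.56 and 0.691% in H2AX-deficient lines 5 and 8, 0.000592 and 4.43% in 53BP1-deficient lines B and C, and 0.000907% in Lig4-/- line A, and it was not listed in Lig4-/- line B. The H2AX-deficient lines lay above both Lig4-/- lines and the 53BP1-deficient lines did not. Its 3'-ending strand stopped at 163 nt.

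The 5 most abundant members of each Lig4-/- line lay both near the cut and far from it. In Lig4-/- line A they took in a 3-nt overhang at 145 nt (0.521%), a 4-nt overhang at 102 nt (0.458%) and a 2-nt overhang at 150 nt (0.423%). In Lig4-/- line B overhangs of 1 nt (0.646%) and 7 nt (0.488%) at 170 nt and another 1-nt overhang (0.508%), which had also lost over 100 nt, were the 3 most abundant. None of these 6 held more than 0.00156% in the other Lig4-/- line. The 1 structure among the 5 most abundant of both lines lay near the cut, a 3-nt overhang at 29 nt. It held 0.00262% of reads in H2AX-deficient line 5 and 0.00385% in 53BP1-deficient line B and was not listed in the other mutant lines, against 0.610 and 0.481% in the Lig4-/- lines. A 4-nt overhang with the same 5' stop held 0.177% in H2AX-deficient line 5, 0.000592% in 53BP1-deficient line B, and 0.297 and 0.481% in the Lig4-/- lines. It too was not listed in the other mutant lines. Overhangs of 1 nt at 32 and 33 nt and of 3 nt at 43 nt held at most 0.00178% in any mutant line, against 0.212 to 0.515% in Lig4-/- lines. These 5 structures with 29 to 43 nt lost had the largest falls of the mean in the comparison of H2AX-deficient with Lig4-/- lines, and also in that of 53BP1-deficient with Lig4-/- lines, which shares the same Lig4-/- lines.

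**Figure D5:**
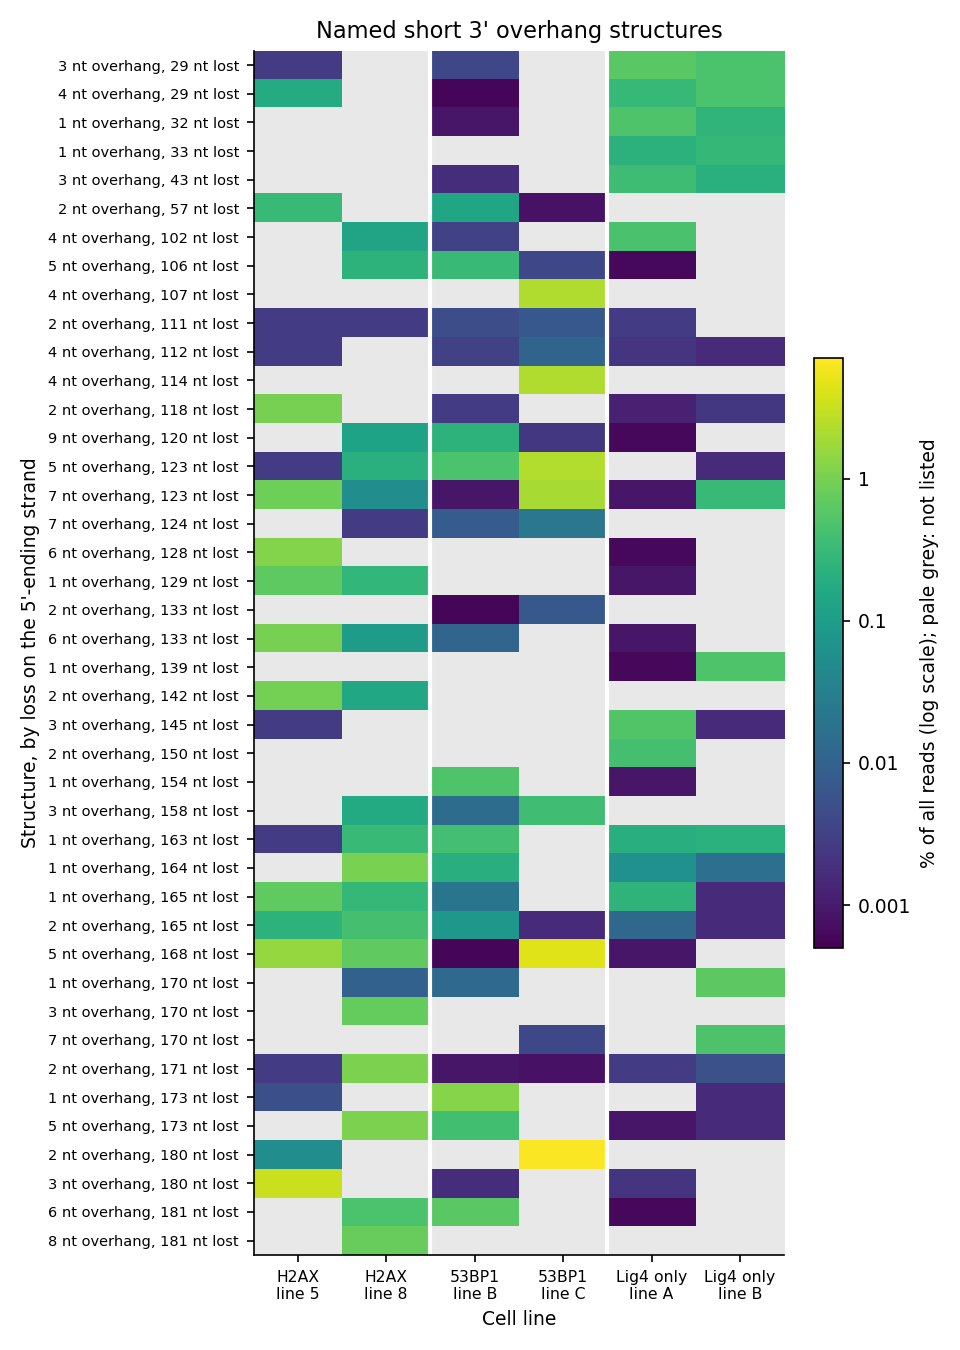
Share (%) of all reads, on a log colour scale, of the 42 named structures (rows, ordered by nt lost on the 5'-ending strand) in the 6 lines (columns); pale grey cells are not listed. The upper 5 rows, with 29 to 43 nt lost, are high in both Lig4-/- lines, and most bright cells of the lower rows belong to 1 line.

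Over all members, 34 of 519 (6.55%) were higher in both H2AX-deficient lines than in both Lig4-/- lines and 44 (8.48%) were lower. The same rule called 3.87% of all substrate structures higher and 13.0% lower, and 3.42 and 4.73% of the far-inside structures that were not members. Of the members called higher, 27 of 34 had lost 100 nt or more, against 78 of 142 members listed in H2AX-deficient line 5 and 124 of 172 in line 8. Of the 34, 15 were not listed in either Lig4-/- line. Of those called lower, 42 of 44 had lost 20 to 59 nt, against 102 of 188 members listed in Lig4-/- line A and 85 of 135 in line B. Of the 44, 35 were not listed in either H2AX-deficient line. This split was not computed for called structures that were not members. The median difference over all members was 0, as it was over all structures. After the 5-nt overhang at 168 nt, the largest rises were a 2-nt overhang at 142 nt (0.970 and 0.156% in H2AX-deficient lines 5 and 8, not listed in Lig4-/- lines), a 6-nt overhang at 133 nt and 1-nt overhangs at 129 and 165 nt. Line 5 was the higher H2AX-deficient line in each. The 1-nt overhang at 165 nt held 0.677 and 0.296% in H2AX-deficient lines 5 and 8, against 0.252% in Lig4-/- line A and 0.00156% in Lig4-/- line B.

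In 53BP1-deficient lines 25 members (4.82%) were higher and 59 (11.4%) lower than in both Lig4-/- lines. The background was 3.75% higher and 15.0% lower over all structures, and 4.01 and 5.57% over far-inside structures that were not members. Of the 25 higher, 24 had lost 100 nt or more, against 124 of 185 members listed in 53BP1-deficient line B and 100 of 110 in line C. Of the 59 lower, 54 had lost 20 to 59 nt, against 102 of 188 members listed in Lig4-/- line A and 85 of 135 in line B. With 53BP1-deficient line B or C left out, fewer lines have to lie apart, so counts of that kind are not set beside this background. Only 5 members were higher when structures needed 10 reads or more to count, a setting for which the share over all structures was not computed. The largest rise was a 5-nt overhang at 123 nt, with 0.481 and 2.38% in 53BP1-deficient lines B and C, no listing in Lig4-/- line A and 0.00156% in Lig4-/- line B. A 3-nt overhang at 158 nt held 0.0145 and 0.378% and was not listed in either Lig4-/- line.

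Between the mutants, 37 members (7.13%) were higher in H2AX-deficient than in 53BP1-deficient lines and 16 (3.08%) were lower. Counts with a 53BP1-deficient line left out are not given here either. Over all structures the shares were 6.44 and 3.22%, and over far-inside structures that were not members 2.64 and 3.48%. The 5-nt overhang at 123 nt was the largest fall, with 0.00262 and 0.213% in H2AX-deficient lines 5 and 8. The 2-nt overhang at 142 nt was the largest rise and was not listed in 53BP1-deficient lines.

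Most members were seen in few lines. Of the 519, 287 were listed in 1 table, 119 in 2, 63 in 3, 35 in 4, 12 in 5 and 3 in all 6. Members listed in 1 table made up 55.3% of the class, against 59.7% of all substrate structures. The 113 members listed in 3 tables or more held 63.5 and 45.0% of member reads in H2AX-deficient lines, 57.6 and 37.7% in 53BP1-deficient lines, and 55.4 and 45.9% in Lig4-/- lines. The members of all 6 tables were a 7-nt overhang at 123 nt and 2-nt overhangs at 165 and 171 nt. The first held 0.859 and 0.0535% in H2AX-deficient lines 5 and 8, 0.000888 and 2.04% in 53BP1-deficient lines B and C, and 0.000907 and 0.315% in the Lig4-/- lines, so its level varied widely within each genotype.

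Lines of a genotype did not always share the most members, and the same overlap over all substrate structures was not computed. The H2AX-deficient lines shared 49 members, 34.5% of line 5 and 28.5% of line 8. The 53BP1-deficient lines shared 37, which were 33.6% of those in line C and a smaller share of those in line B, and these held 11.2 and 30.3% of their member reads. The Lig4-/- lines shared 71 members, 37.8% of those in line A and 52.6% of those in line B, and these held 50.5 and 47.3% of their member reads. The largest overlap of any pair was the 73 members shared by 53BP1-deficient line B and Lig4-/- line A, the tables with the most reads and the most members. H2AX-deficient line 5 shared 60 members with each of these and 45 with Lig4-/- line B, and H2AX-deficient line 8 shared 58 with 53BP1-deficient line B. The 31 members shared by H2AX-deficient line 5 and 53BP1-deficient line C, the lines named together in the title of 1 library, held 15.1% of member reads in H2AX-deficient line 5 and 60.03% in 53BP1-deficient line C. H2AX-deficient line 8, which is not named there, shared 39 members with 53BP1-deficient line C, and these held 24.5% of member reads in H2AX-deficient line 8 and 44.7% in 53BP1-deficient line C. Whether that library contributed to the overlap was not tested.

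Some stops recurred with different overhangs. On the 5'-ending strand the stop at 123 nt was in all 6 tables, with 9 members of different overhang length, and held 5.06 and 1.88% of member reads in H2AX-deficient lines 5 and 8, 8.24 and 19.8% in 53BP1-deficient lines B and C, and 0.0213 and 2.19% in the Lig4-/- lines. The stop at 29 nt held at most 0.581% in a mutant line, against 10.4 and 10.96% in the Lig4-/- lines. The stop at 180 nt held 10.7% in H2AX-deficient line 5 and 21.9% in 53BP1-deficient line C, and at most 0.0323% in the others. Among reads of the other far-inside ends the stop at 123 nt held 0.309 and 1.33%, 3.93 and 0.0415%, and 0.0307 and 0.168%, in the same order of lines. There the stop at 29 nt held at most 0.575% in any line and that at 180 nt at most 1.86%.

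On the 3'-ending strand the stop at 163 nt was in all 6 tables, from 7 members. It held 6.24 and 9.04% of member reads in H2AX-deficient lines 5 and 8, 2.52 and 17.3% in 53BP1-deficient lines B and C, and 0.619 and 3.46% in the Lig4-/- lines. Among reads of the other far-inside ends it held 0.996 and 4.16%, 0.705 and 4.75%, and 3.31 and 2.36% in these lines. There Lig4-/- line A lay above H2AX-deficient line 5 and 53BP1-deficient line B. The sequence of the substrate was not used here, so the bases at these stops are not given.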

How the data were processed

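Per the labels' protocols, genomic DNA went through ligation of single strands, bisulfite treatment and PCR before it was sequenced on an Illumina MiSeq. The authors deposited, for each group of 3 libraries, a table of end structures with raw read counts, and 2 whole numbers for each structure, a position and an overhang, that have no stated unit and were read here as nt. Neither an aligner nor a genome build is given in the sources used here. Of the tables, 17 were used and 2 that repeated the values of others were left out.

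The position was read as the 5' stop, the 3' stop as position minus overhang, and loss as position minus 2. Shares of reads were computed per line with scipy 1.17.1, numpy 2.4.6 and pandas 2.3.3 under Python 3.11.15, with exact Clopper-Pearson 95% intervals, and drawn with matplotlib 3.10.9. Intervals cover counting error only, since PCR reads are not independent molecules. A difference between genotypes was called where every pair of lines lay on the same side and passed Fisher's exact test, two-sided, at 0.05, without adjustment, and it was set beside the gap between sister lines (those of the same genotype). Where an alternative left 1 line in a genotype, a call rested on the reads of that line alone. A single structure was higher or lower where both lines of a genotype lay above or below both lines of the other, a structure not listed counting as 0. Classes of end and breaks were compared by exact paired permutation over lines, with Benjamini-Hochberg adjustment over 10 comparisons, a test added after seeing the data. The scripts were tested on simulated data.

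Members and lists were chosen with earlier results of these data known. The structures named were the 5 most abundant of each table, those listed in all tables, the 5 largest rises and falls of each genotype comparison, and those at the edges of the class. The alternatives were counting each structure once, minimum reads per structure, leading members left out, other limits of loss and overhang, the strand that sets the loss, each line left out and run 4 alone.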

Additional observations from a re-analysis of the deposited data

How the results depend on the processing

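Differences are given in points. Members with 20 to 59 nt or with 100 nt or more lost kept their direction against Lig4-/- lines under all 14 alternatives run for each, but some moved by over 1.5 times. Position was a value of the rule, so these shares are description. The alternatives re-cut the same reads and are not independent of each other. With each structure counted once, the difference rests on numbers of listed structures, which are not replicates and are limited by depth. That alternative therefore tells of the direction only. With 100 nt or more lost, the H2AX difference of 20.05 became 9.06 with each structure counted once, 12.9 with overhangs of 1 to 4 nt and 12.9 without the 10 most abundant members. The 53BP1 difference of 16.8 became 9.23, 8.89 and 3.15 under these. With 20 to 59 nt lost, the H2AX difference of -5.21 became -2.55 without the 10 most abundant members. For the share of members among all reads, H2AX-deficient against Lig4-/- lines, 15 of 16 alternatives kept the call. The exception was counting each structure once (4.40, not called). The difference shrank to 6.78 with a limit of 10 nt and 8.76 with overhangs of 1 to 4 nt, and leaving out 1 line gave 15.6 to 17.4.

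For the same share in 53BP1-deficient against Lig4-/- lines, which was not called, the sign turned with each structure counted once (-0.315), with 10 nt or more lost as the limit (-2.84), without the 10 most abundant members (-3.34), within run 4 and without 53BP1-deficient line C (both -1.78). Calls were made in both directions. With all lines kept, the difference was called as lower without the 10 most abundant members and as higher with a limit of 40 nt (14.0). It was 17.3 without 53BP1-deficient line B, so leaving out 1 line gave -1.78 to 17.3. H2AX-deficient against 53BP1-deficient lines was called without the leading member (10.3), with overhangs of 1 to 4 nt (7.04) and without the 10 most abundant members (15.8). That difference was 18.99 in run 4, and leaving out 1 line gave -0.797 to 18.3.

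Among far-inside reads, H2AX-deficient against Lig4-/- lines turned sign with each structure counted once (2.48), with a limit of 40 nt (7.61) and without Lig4-/- line B (0.155), and of these it was called with the limit of 40 nt. It was called in the negative direction with a limit of 10 nt (-7.67) and overhangs of 1 to 4 nt (-6.05). Leaving out 1 line gave -4.65 to 0.155. The 53BP1-deficient against Lig4-/- call was lost with each structure counted once (-6.38), a limit of 40 nt (-3.04), overhangs of 2 to 9 nt (-7.31), loss counted on the 3'-ending strand (-11.7) and structures listed in 2 tables or more (-9.13). It was -20.1 without the 10 most abundant members, and leaving out 1 line gave -22.4 to -2.96. The H2AX-deficient against 53BP1-deficient call was lost under the last 4 of those 5 alternatives (10.6, 6.49, 10.5 and 7.57). It was 17.6 without the 10 most abundant members, and leaving out 1 line gave 0.710 to 20.2.

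With 10 reads or more required, 21 members were higher and 24 lower in H2AX-deficient than in Lig4-/- lines, 5 higher and 27 lower in 53BP1-deficient than in Lig4-/- lines, and 4 lower in H2AX-deficient than in 53BP1-deficient lines. Without 1 line these counts were 40 to 150 and 53 to 125, 28 to 128 and 60 to 152, and, between the mutants, 41 to 146 higher and 20 to 115 lower, since fewer lines then have to lie apart. Leaving out the 10 most abundant members, keeping structures listed in 2 tables or more, the alternatives for ranges of loss, and shares by loss or overhang length without 53BP1-deficient line C were chosen after seeing the data. The cause of the changes in the shares was not tested. No paired analysis was possible because the lines of different genotypes share no number in the labels. Rare structures are limited by depth, as the tables start at 2 reads or, in 53BP1-deficient line C, at 1.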

Other observations

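A separate PCR for de novo breaks at the substrate in Lig4-/- H2AX-/- line 8 listed 37 structures with 3' overhangs of 1 to 9 nt among its 293 structures. They held 6.99% of its 68969 reads. The lowest position in that table was 120, so its positions may be counted from another origin, and they were not set beside those of the 6 substrate tables.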
